A study of Mus musculus with 10 samples.

Results

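Genes grouped as proximal and intermediate identity genes of the first pharyngeal arch were examined in mandibular prominences (MNPs) of mouse embryos at E10.5. MNPs are the paired swellings of that arch from which the lower jaw develops. The position of each gene along the arch was not tested here. 9 genes were chosen by name, of 33641 gene symbols listed in the files: Pou3f3, Nr2f1, Nr2f2, Meis1, Meis2, Eya1, Tshz2, Emx2 and Cldn11. All 9 passed the filter on low counts. 3 genotypes on the CD1 strain were compared: wild-type (WT, replicates 3 and 4), Hand2 f/f with Wnt1-Cre+ (Hand2 cKO, replicates 1 to 3) and Gli2 f/f together with Gli3 f/f and Wnt1-Cre+ (Gli2/3 cKO, replicate 3 alone). 4 other samples that the labels list were not analysed here. Wnt1-Cre acts in neural crest cells, which form most of the arch mesenchyme, and leaves the epithelium, mesodermal core, vessels and blood of the same dissected tissue with their alleles. The WT embryos are not stated to carry Wnt1-Cre or floxed alleles, so effects of the driver cannot be told apart from those of the deletions. The sources used here do not say how many embryos went into a library.

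The first arch is patterned along an axis from its proximal part, next to the head and continuous with the maxillary prominence, to its distal tip at the midline. Endothelin signalling through Dlx5 and Dlx6 switches on Hand2 distally, and Hand2, a basic helix-loop-helix factor, holds down more proximal programs there. Gli2 and Gli3 are zinc-finger factors through which Hedgehog signals reach the genome. The question was whether proximal and intermediate genes were higher once Hand2, or Gli2 and Gli3, were deleted from the neural crest. Pou3f3 is a POU-homeodomain factor of the proximal and maxillary arch, where Dlx genes and Pou3f3 act together in the upper-jaw program. Nr2f1 and Nr2f2 (also called COUP-TF I and II) are orphan nuclear receptors of the maxillary and intermediate mesenchyme. Meis1 and Meis2 are homeodomain cofactors of the TALE class that bind DNA with Pbx and other factors. Eya1 is a phosphatase and coactivator of homeodomain factors, needed for derivatives of the arches and the ear. Tshz2 is a zinc-finger factor of the teashirt family. Emx2 is a homeodomain factor known from the cerebral cortex, the urogenital system and the limb girdles. Cldn11 is a tight junction protein, known best from oligodendrocytes and Sertoli cells.

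Most of the 9 genes were close to their WT levels in both mutants, and 4 stood apart: Pou3f3, Emx2, Tshz2 and Cldn11. Pou3f3 and Emx2 were above both WT libraries in all 4 mutant libraries, Tshz2 was below WT in Hand2 cKO by a factor of 3.38, and Cldn11 was low in the Gli2/3 cKO library. None of the 9 passed the threshold in any comparison by edgeR. 3 of the contrasts passed by DESeq2: Tshz2 lower in Hand2 cKO, Pou3f3 higher in Gli2/3 cKO and Cldn11 lower in Gli2/3 cKO than in Hand2 cKO.

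Promoter windows of these 4 genes are printed first, because they carry the contrasts that stood apart. Each window runs from 250 bases before to 50 bases after a start site, is 300 bases long and comes from RefSeq on GRCm38.p6 (mm10), read 5′ to 3′ on the strand of the gene. Capitals mark CCTCC or its reverse complement GGAGG, the core of the divergent Gli-binding motif that the study describes, and overlapping matches run together. Pou3f3 has 5 matches, Emx2 4, Tshz2 5 and Cldn11 2. They lie at chr1:42695518-42695817, chr19:59458440-59458739, chr2:169632259-169632558 and chr3:31149670-31149969, all on the plus strand.
Pou3f3: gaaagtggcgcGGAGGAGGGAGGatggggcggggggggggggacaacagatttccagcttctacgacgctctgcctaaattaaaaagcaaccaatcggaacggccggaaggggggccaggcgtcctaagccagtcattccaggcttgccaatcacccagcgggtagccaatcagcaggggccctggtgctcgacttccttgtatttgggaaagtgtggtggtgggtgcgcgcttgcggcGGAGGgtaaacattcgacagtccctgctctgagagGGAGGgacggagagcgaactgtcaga
Emx2: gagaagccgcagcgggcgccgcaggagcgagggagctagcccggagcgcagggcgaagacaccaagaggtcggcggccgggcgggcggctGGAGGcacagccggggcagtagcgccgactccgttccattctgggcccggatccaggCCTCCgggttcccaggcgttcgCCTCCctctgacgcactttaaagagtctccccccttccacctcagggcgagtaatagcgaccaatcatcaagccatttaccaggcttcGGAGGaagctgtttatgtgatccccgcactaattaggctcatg
Tshz2: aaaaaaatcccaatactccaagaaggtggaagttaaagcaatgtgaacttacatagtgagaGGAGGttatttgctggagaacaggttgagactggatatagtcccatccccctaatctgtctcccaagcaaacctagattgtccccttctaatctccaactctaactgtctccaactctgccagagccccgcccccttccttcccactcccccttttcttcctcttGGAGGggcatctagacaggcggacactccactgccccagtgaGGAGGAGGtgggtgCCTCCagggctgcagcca
Cldn11: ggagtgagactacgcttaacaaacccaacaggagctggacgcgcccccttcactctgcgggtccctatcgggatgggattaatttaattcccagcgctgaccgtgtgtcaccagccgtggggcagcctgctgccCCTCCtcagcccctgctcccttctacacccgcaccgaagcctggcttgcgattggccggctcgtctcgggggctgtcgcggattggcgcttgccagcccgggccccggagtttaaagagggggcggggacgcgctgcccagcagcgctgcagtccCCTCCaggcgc

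8 of the 9 genes had a window, Nr2f1 had 2, and Eya1 had none. CCTCC was present, on either strand, in 66.7% of the 9 windows and in 72.9% of the 32851 promoters in the same table. The general E-box CANNTG, the class of site bound by basic helix-loop-helix factors such as Hand2, was present in the windows of Meis1 (1 match), Nr2f2 (2) and Nr2f1 (3 in 1 of the windows), or 33.3% of the 9 windows against 72.3% of all promoters. No window of the 4 genes printed here held a CANNTG. The canonical Gli site GACCACCC was in none of the 9 windows and in 0.807% of all promoters. All motifs were searched on both strands. Matches are letters in a short window, and windows of distal enhancers were not searched.

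In WT the 9 genes spanned a wide range of expression. Levels of different genes were compared in TPM, a scale that divides counts by transcript length and then sets every library to the same sum, as the mean of 2 WT libraries ± SD. Nr2f1 (161 ± 20.99 TPM), Meis2 (153 ± 1.95 TPM) and Nr2f2 (110 ± 46.3 TPM) were the most abundant. Nr2f1 and Meis2 overlapped between the WT libraries, and both values of Nr2f2 lay below theirs. Eya1 (42.1 ± 0.875 TPM) and Meis1 (41.6 ± 7.02 TPM) followed, and did not differ beyond their spread. Tshz2 had 12.0 ± 1.64 TPM, and Emx2 4.86 ± 4.54 TPM with libraries at 8.07 and 1.65 TPM. Cldn11 had 2.40 ± 0.242 TPM, inside the span of the Emx2 values. Pou3f3 was the lowest at 0.629 ± 0.490 TPM. Meis2 and Nr2f2, Nr2f2 and Eya1, Meis1 and Tshz2, Tshz2 and Emx2, and Cldn11 and Pou3f3 were neighbours in this order whose WT values did not overlap.

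The libraries held 21420197 to 53326697 estimated counts each. In Hand2 cKO 2, log2 counts had a slope of -0.23 per doubling of transcript length relative to the mean of all libraries, against -0.06 to 0.11 in the rest, so that long transcripts read low in it. Neural crest mesenchyme markers (8 genes, among them Twist1 and Prrx1) summed to 1435 to 1739 CPM (counts scaled by library size) in all libraries, and epithelial markers to 334 to 403 CPM. Blood genes ranged from 2407 to 7482 CPM. The targeted genes were low where they were deleted. Hand2 had 175 and 209 CPM in WT, 13.4, 25.5 and 15.6 CPM in the Hand2 cKO libraries and 144 CPM in the Gli2/3 cKO library. Its log2 fold change in Hand2 cKO was -3.40 ± 0.30 (± SE here and below), which missed the threshold by the quasi-likelihood test of edgeR (adjusted p = 0.0580) and passed by DESeq2 (adjusted p = 4.85e-22). Gli2 had 122 and 105 CPM in WT against 58.3 CPM in Gli2/3 cKO, and Gli3 had 176, 145 and 80.2 CPM in the same order. Counts cover the whole gene in mixed tissue, so remaining counts do not show how complete the deletion was. In bulk tissue, fewer cells of a type and less RNA per cell cannot be told apart, which holds for every value that follows.

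**Figure D1:**
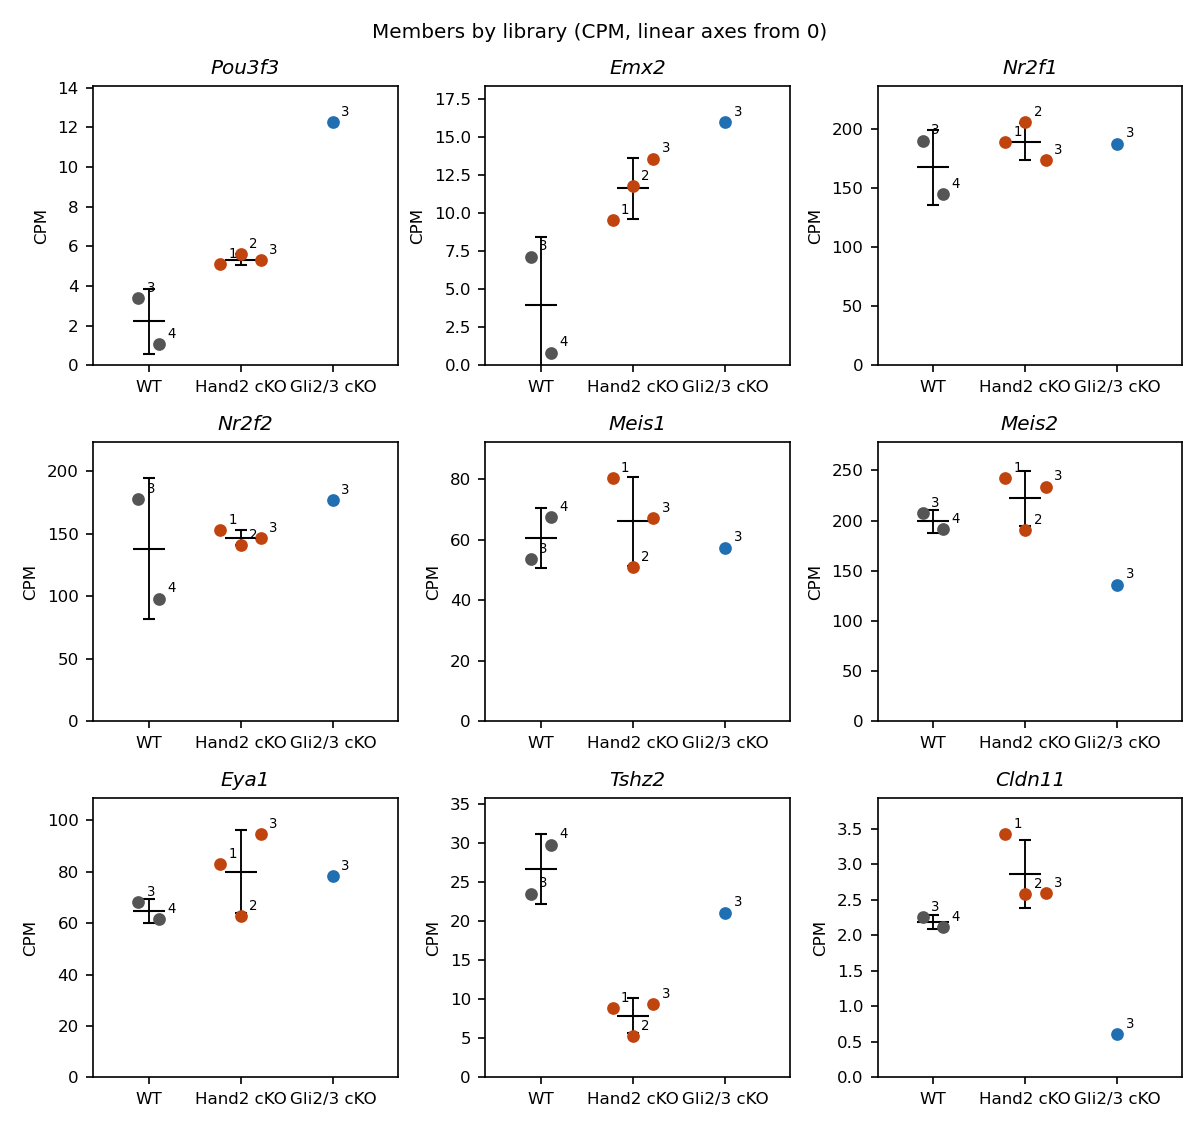
CPM of the 9 genes in each library (linear axes from 0) with the replicate number beside each point; bars give mean ± SD for the 2 WT and the 3 Hand2 cKO libraries, and the lower SD bar of Emx2 in WT runs below 0 and is not drawn. Pou3f3 and Emx2 are above both WT libraries in all 4 mutant libraries, Tshz2 is lowest in the 3 Hand2 cKO libraries, and Cldn11 is lowest in the Gli2/3 cKO library at 0.612 CPM.

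Hand2 cKO was compared with WT to ask whether proximal genes were higher without the distal factor. 8 of the 9 genes had a positive log2 fold change, against 49.9% of all 17477 genes tested, with a median of 0.18 for the 9 and -0.00012 for all genes. edgeR called 0 of the 9 higher and 0 lower, where it called 0% of all genes higher and 0.0114% lower. With an unadjusted p under 0.05, Pou3f3 was higher and Tshz2 lower, 1 of 9 in each direction, where 2.44% and 4.02% of all genes passed. DESeq2 called 0 of the 9 higher (0.208% of all genes) and 1 lower, Tshz2 (0.875% of all genes).

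Pou3f3 had 3.39 and 1.06 CPM in WT against 5.09, 5.62 and 5.30 CPM in Hand2 cKO. The 3 Hand2 cKO libraries lay close together and above both WT libraries, which differed from each other by a factor of 3.19. The mean was 2.23 ± 1.65 CPM in WT (SD, n = 2) and 5.34 ± 0.270 CPM in Hand2 cKO (SD, n = 3), a 2.40-fold difference. The log2 fold change was 1.22 ± 0.45, with a 95% interval from 0.13 to 2.32 and an adjusted p of 0.723 (edgeR; 0.327 by DESeq2). Without WT 4 it was 0.65, and without WT 3 it was 2.33, neither past the threshold.

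Emx2 had 7.15 and 0.840 CPM in WT against 9.55, 11.8 and 13.6 CPM in Hand2 cKO. Every Hand2 cKO library was above both WT libraries here too, and WT 4 was 8.51-fold below WT 3. The log2 fold change was 1.503 ± 0.73 (95% interval -0.27 to 3.28, edgeR adjusted p = 0.723), 0.70 without WT 4 and 3.79 without WT 3. The size of both differences therefore rested on which WT library was used. Counting error was smaller than the gap between the WT libraries. The exact Poisson 95% intervals, which cover counting error only, ran from 0.680 to 1.58 CPM for Pou3f3 in WT 4 (24 counts) and 2.90 to 3.93 CPM in WT 3 (174 counts), and from 0.506 to 1.31 CPM (19 counts) and 6.44 to 7.92 CPM (367 counts) for Emx2.

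Tshz2 went the other way, lower without Hand2, which is not the direction asked of a proximal gene. It had 23.6 and 29.8 CPM in WT, 8.93, 5.31 and 9.44 CPM in the Hand2 cKO libraries and 21.1 CPM in the Gli2/3 cKO library. All 3 Hand2 cKO libraries were below both WT libraries and below the Gli2/3 cKO library. The mean was 26.7 ± 4.45 CPM in WT (SD, n = 2) and 7.89 ± 2.25 CPM in Hand2 cKO (SD, n = 3). The log2 fold change of -1.76 ± 0.29 (95% interval -2.45 to -1.06) missed the threshold by edgeR (adjusted p = 0.233) and passed by DESeq2 (adjusted p = 1.42e-05). It also passed by edgeR with the transcript-length trend removed (-1.69, adjusted p = 0.0389) and without Hand2 cKO 2 (-1.55, adjusted p = 0.0482), the library in which long transcripts read low. Without each of the other libraries the value lay between -1.92 and -1.58.

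Cldn11 had 2.26 and 2.12 CPM in WT against 3.42, 2.59 and 2.60 CPM in Hand2 cKO. The groups did not overlap, but the log2 fold change was small, at 0.39 ± 0.27 (95% interval -0.26 to 1.03, edgeR adjusted p = 0.723). Counted over the 9 genes, the Hand2 cKO libraries were all above WT in 3 (Pou3f3, Emx2 and Cldn11) and all below in 1 (Tshz2), where 15.3% and 15.7% of all genes showed these patterns.

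The 5 abundant genes were close to WT in Hand2 cKO, and their libraries overlapped. Nr2f1 had 190 and 145 CPM in WT against 188, 205 and 173 CPM in Hand2 cKO, with a log2 fold change of 0.18 ± 0.18 (95% interval -0.27 to 0.62). Nr2f2 had 178 and 98.3 CPM in WT against 153, 141 and 147 CPM in Hand2 cKO (0.09 ± 0.26, interval -0.54 to 0.72). The intervals leave room for changes of either sign in both nuclear receptors. Meis1 had 53.7 and 67.6 CPM in WT against 80.3, 51.1 and 67.1 CPM in Hand2 cKO (0.13 ± 0.23, interval -0.43 to 0.68). Meis2 had 207 and 191 CPM in WT against 242, 191 and 234 CPM in Hand2 cKO (0.16 ± 0.17, interval -0.26 to 0.57). Eya1 had 68.0 and 61.4 CPM in WT against 82.9, 62.7 and 94.5 CPM in Hand2 cKO (0.31 ± 0.21, interval -0.20 to 0.81). The Eya1 value depended on the transcripts counted. Its most abundant transcript by mean count over all 6 libraries, of 4347 bases, had 22.2 and 23.1 CPM in WT. It had 52.3, 48.4 and 32.8 CPM in Hand2 cKO. The next, of 4366 bases, had 29.6 and 17.4 CPM in WT and 23.5, 13.6 and 44.5 CPM in Hand2 cKO. In WT the mean of the first (22.7 CPM) was not above that of the next (23.5 CPM). With the first transcript alone, the log2 fold change of Eya1 was 0.94 ± 0.24, with a p of 0.0099 before and 0.808 after adjustment by edgeR. That transcript was chosen partly on its Hand2 cKO counts, so its fold change and p are not independent support for a rise. The share of this transcript in the gene was unstable, at 32.6% and 37.7% in WT and 63.0%, 77.2% and 34.7% in Hand2 cKO. The authors' program splits reads among near-identical transcripts, and its part in the single-transcript value was not tested. In Eya1, Meis1 and Meis2, Hand2 cKO 2 was the lowest of the 3 mutant libraries. The edgeR adjusted p of these 5 genes was 0.723 to 0.917.

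The comparison of the Gli2/3 cKO library with WT asked the same of the Hedgehog effectors. This group has 1 library, so the test borrows the spread of the WT and Hand2 cKO libraries and the difference has no replicate check of its own. 5 of the 9 genes had a positive log2 fold change, against 50.2% of all genes. edgeR called 0 of the 9 higher (0% of all genes) and 0 lower (0.0114%). With an unadjusted p under 0.05, 1 was higher, Pou3f3 (1.63% of all genes), and 1 lower, Cldn11 (2.96%). DESeq2 called 1 higher, Pou3f3 (0.124% of all genes), and 0 lower (0.689%).

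Pou3f3 had its highest level in the Gli2/3 cKO library, 12.2 CPM from 320 counts (exact Poisson 95% interval 10.9 to 13.7 CPM). That was 3.61-fold of WT 3 and 11.5-fold of WT 4. The log2 fold change was 2.42 ± 0.60 (95% interval 0.97 to 3.87), past the threshold by DESeq2 (adjusted p = 0.0155) and not by edgeR (adjusted p = 0.683). It was 1.85 without WT 4 and 3.52 without WT 3. Emx2 was also highest in this library, at 16.0 CPM, 2.23-fold of WT 3 and 19.0-fold of WT 4 (log2 fold change 1.96 ± 0.97, 95% interval -0.41 to 4.33, edgeR adjusted p = 1). It was 1.16 without WT 4 and 4.24 without WT 3.

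Cldn11 was at 0.612 CPM in the Gli2/3 cKO library, from 16 counts (exact Poisson 95% interval 0.350 to 0.994 CPM), below the 2.12 to 3.42 CPM of the other 5 libraries. Against WT the log2 fold change was -1.84 ± 0.40 (95% interval -2.80 to -0.87, adjusted p = 0.635 by edgeR and 0.124 by DESeq2). Meis2 was also lowest in this library, at 136 CPM, with a log2 fold change of -0.55 ± 0.23 (95% interval -1.10 to 0.01, edgeR adjusted p = 1). Tshz2 (21.1 CPM, -0.34 ± 0.38) lay just under the WT libraries and Eya1 (78.2 CPM, 0.27 ± 0.28) just above them. Nr2f1 (187 CPM), Nr2f2 (177 CPM) and Meis1 (57.4 CPM) lay between the WT libraries. The library was outside WT on the high side in 3 of the 9 genes and on the low side in 3, where 36.6% and 33.7% of all genes were, so these shares were near those of all genes.

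The mutants were then set against each other. 4 of the 9 genes had a positive log2 fold change of Gli2/3 cKO over Hand2 cKO, against 48.2% of all genes. The Gli2/3 cKO library was above all 3 Hand2 cKO libraries in 4 of the 9 (28.7% of all genes) and below them in 2 (27.2%). edgeR called 0 of the 9 higher in Gli2/3 cKO than in Hand2 cKO and 0 lower (0.0172% of all genes each way). With an unadjusted p under 0.05, Tshz2 was higher and Cldn11 and Meis2 lower in Gli2/3 cKO (2.86% and 2.63% of all genes). Tshz2 differed by 1.42 ± 0.36 on the log2 scale (95% interval 0.54 to 2.30, adjusted p = 0.625 by edgeR and 0.0553 by DESeq2). Cldn11 differed by -2.22 ± 0.38 (95% interval -3.14 to -1.31), past the threshold by DESeq2 (adjusted p = 0.00835; 0.62% of all genes were called lower) and not by edgeR (adjusted p = 0.410). Meis2 differed by -0.71 ± 0.22 (edgeR adjusted p = 0.798). Pou3f3 (1.20 ± 0.55, 95% interval -0.149 to 2.55) and Emx2 (0.46 ± 0.91, interval -1.75 to 2.66) were not separated between the mutants. Both comparisons with WT use the same 2 WT libraries, so the positive values of Pou3f3 and Emx2 in both are not independent.

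**Figure D2:**
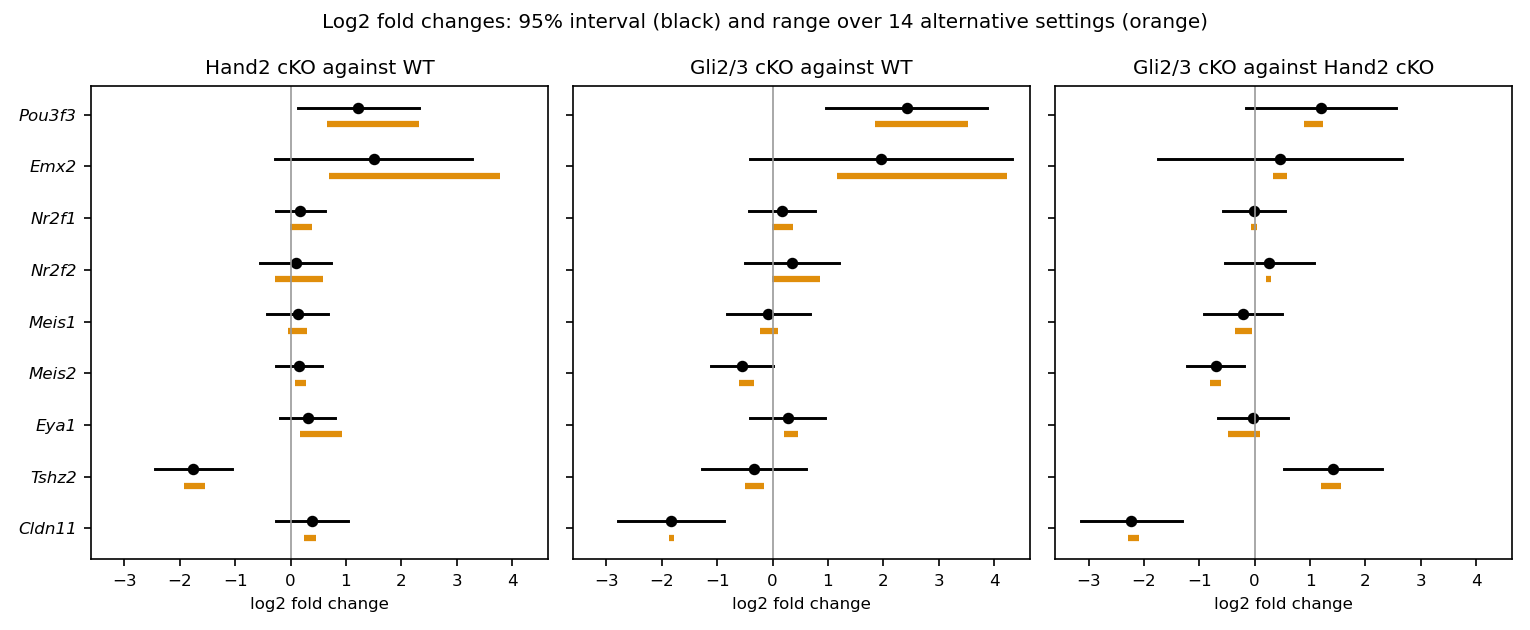
Log2 fold change of each gene in the 3 comparisons; black points and lines are the edgeR values with 95% intervals, and orange bars span the values over 14 alternative settings, those that leave out a library included. Against WT the orange bars are longest for Emx2, from 0.70 to 3.79 in Hand2 cKO and from 1.16 to 4.24 in Gli2/3 cKO, while the bars of Tshz2 in Hand2 cKO (-1.92 to -1.55) and Cldn11 in Gli2/3 cKO (-1.88 to -1.79) are short.

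The WT libraries differed from each other in some of these genes. WT 4 was below WT 3 in 7 of the 9, and in 50.9% of all genes tested. Emx2 was 2.95 lower in log2 and Pou3f3 1.59 lower (0.1 CPM added), and only 0.252% and 1.56% of all genes were further down in WT 4. Nr2f2 followed with 0.85 (5.41% of genes further down). Eya1, Meis2 and Cldn11 differed little, with 33.5% to 40.5% of all genes further down. Meis1 and Tshz2 were higher in WT 4, by 0.33 and 0.34. The partner genes described below were lower in WT 4 in 10 of 10 cases (median -0.29). Further proximal and maxillary genes were lower in 14 of 18 (median -0.38). Distal and mandibular genes were lower in 11 of 23 (median 0.01). The blood markers were higher in WT 4 in 6 of 6 (median 1.72). Depth differed as well, with 49545102 estimated counts in WT 3 and 21420197 in WT 4, and its part was not tested.

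Without WT 4, 6 of the 9 genes had a positive log2 fold change in Hand2 cKO (median 0.23) and 4 of 9 in Gli2/3 cKO (median -0.01). Without WT 3, 7 of 9 were positive in Hand2 cKO (median 0.39) and 5 of 9 in Gli2/3 cKO (median 0.35). Pou3f3 and Emx2 were positive and Tshz2 negative in both mutants either way.

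Pou3f3 and Emx2 are also genes of the developing forebrain, so 12 forebrain and neural progenitor genes were read in the same libraries. Their summed level was 18.04 and 12.3 CPM in WT, 20.99, 26.5 and 22.9 CPM in the Hand2 cKO libraries and 28.8 CPM in the Gli2/3 cKO library. Like Pou3f3 and Emx2, the sum was lowest in WT 4 and highest in Gli2/3 cKO. Sox2, a factor of neural progenitors and of epithelia, was the largest part of it in every library, with 9.97 and 8.80 CPM in WT, 13.98, 13.6 and 12.9 CPM in the Hand2 cKO libraries and 11.3 CPM in the Gli2/3 cKO library. In Gli2/3 cKO 9 of the 10 that could be tested had a positive log2 fold change (median 1.66), and 6 of 10 in Hand2 cKO (median 0.61). Lhx2, a LIM-homeodomain factor of forebrain and other tissues, had 5.44 and 1.72 CPM in WT, 4.60, 9.74 and 7.68 CPM in the Hand2 cKO libraries and 9.60 CPM in the Gli2/3 cKO library. Otx2, a head and forebrain patterning gene, had 0.448 and 0.398 CPM in WT, 1.08, 1.32 and 0.987 CPM in the Hand2 cKO libraries and 1.68 CPM in the Gli2/3 cKO library. Pou3f2, a neural paralog of Pou3f3, had 1.38 CPM in Gli2/3 cKO and at most 0.265 CPM elsewhere, and Hes5, a Notch target of neural progenitors, 0.765 CPM and at most 0.106 CPM. Other genes of the list had lower values in Hand2 cKO. Pax6, a paired-box factor of forebrain and eye, had 0.701 and 0.619 CPM in WT, 0.454, 0.264 and 0.193 CPM in the Hand2 cKO libraries and 1.11 CPM in the Gli2/3 cKO library. Lhx5, a LIM-homeodomain factor, had 0.390 and 0.265 CPM in WT, 0.0378, 0.0792 and 0.193 CPM in the Hand2 cKO libraries and 0.306 CPM in the Gli2/3 cKO library. Sox1 and Sox3 also had negative log2 fold changes in Hand2 cKO, and these 4 genes missed the threshold by edgeR (adjusted p = 0.723 to 0.886). Six3 and Rax, which help to define the early forebrain, were at or near 0. Six3 reached at most 0.191 CPM, in Gli2/3 cKO, and Rax at most 0.0792 CPM in any library. 6 of the 12 were under 1 CPM in every library. The part of forebrain RNA in the Pou3f3 and Emx2 values was not tested.

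**Figure D3:**
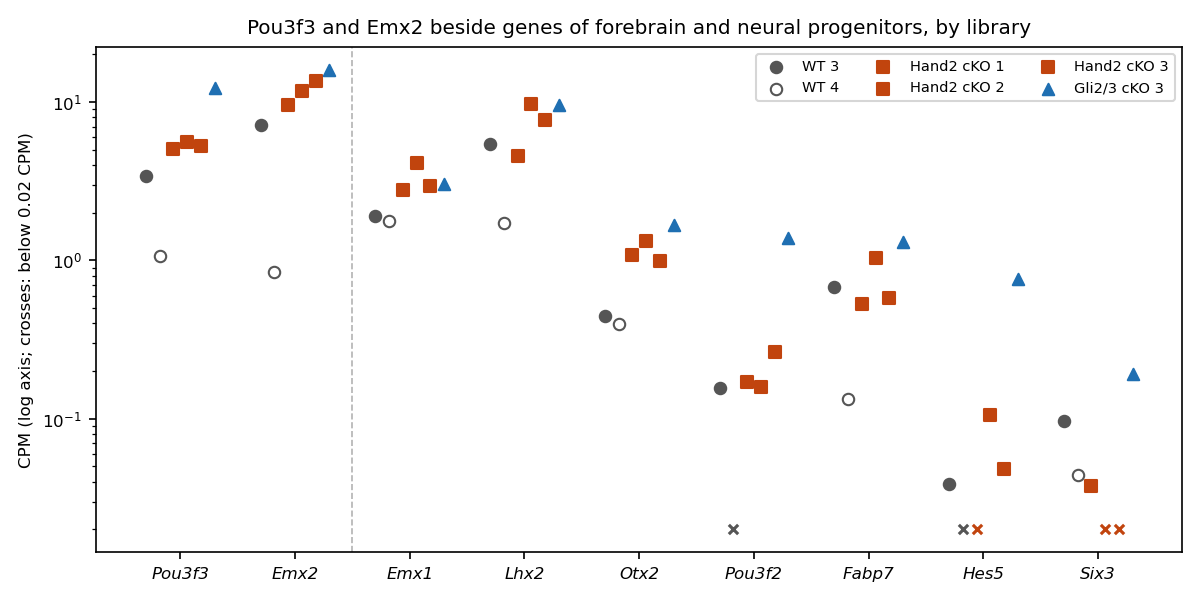
CPM (log axis) of Pou3f3 and Emx2, left of the dashed line, and of 7 forebrain or neural progenitor genes and paralogs, in each library; grey circles are WT (open for WT 4), orange squares Hand2 cKO and blue triangles Gli2/3 cKO, and crosses stand for values under 0.02 CPM. Six3 reaches at most 0.191 CPM in any library, while Lhx2 is lowest in WT 4, as Pou3f3 and Emx2 are. The 7 genes were picked after their values were seen and do not stand for the whole forebrain list. Sox2 is not drawn, nor are Pax6, Lhx5, Sox1 and Sox3, which had negative log2 fold changes in Hand2 cKO.

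Paralogs of the 9 genes were read next. The counts in this and the following gene lists are to be read beside the shares of all genes given above for each comparison. Of 11 paralogs, 5 had a positive and 6 a negative log2 fold change in Hand2 cKO (median -0.05), against 49.9% of all genes positive. Before adjustment 2 were higher (2.44% of all genes) and 3 lower (4.02%) at p under 0.05. edgeR and DESeq2 called 0 of the paralogs, where DESeq2 called 0.208% of all genes higher and 0.875% lower. All 3 teashirt genes had lower values in Hand2 cKO. Tshz1 had 89.0 and 62.1 CPM in WT, 45.4, 21.1 and 43.7 CPM in the Hand2 cKO libraries and 61.7 CPM in the Gli2/3 cKO library. Tshz3 had 6.29 and 7.47 CPM in WT, 4.69, 3.25 and 4.05 CPM in the Hand2 cKO libraries and 5.93 CPM in the Gli2/3 cKO library. As with Tshz2, every Hand2 cKO library of both was below every other library. The log2 fold changes were -1.04 ± 0.36 for Tshz1 and -0.78 ± 0.24 for Tshz3 (edgeR adjusted p = 0.723 each), and Hand2 cKO 2 was the lowest library for all 3 teashirt genes. Eya2, a paralog of Eya1, had 20.7 and 21.5 CPM in WT, 16.2, 15.4 and 14.5 CPM in the Hand2 cKO libraries and 8.34 CPM in the Gli2/3 cKO library. Its log2 fold change was -0.46 ± 0.15 in Hand2 cKO (edgeR adjusted p = 0.723) and -1.34 ± 0.21 in Gli2/3 cKO, which passed by DESeq2 (adjusted p = 0.000179) and not by edgeR (0.437). Emx1, a cortical paralog of Emx2, had 1.91 and 1.77 CPM in WT, 2.80, 4.14 and 2.94 CPM in the Hand2 cKO libraries and 3.02 CPM in the Gli2/3 cKO library (0.84 ± 0.28 in Hand2 cKO, edgeR adjusted p = 0.723). In Gli2/3 cKO 3 of the 11 paralogs were positive, with 1 higher and 1 lower before adjustment and 1 called lower by DESeq2, Eya2.

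Partner genes encode proteins that act with Eya1 (Six2, Six4, Six5, Dach1 and Dach2) or with Meis1 and Meis2 (Pbx and Pknox proteins). They were positive in Hand2 cKO in 9 of 10 cases, against 49.9% of all genes, with a median of 0.26. All 10 were lower in WT 4 than in WT 3 (median -0.29), a gap of similar size. How far the positive count rests on WT 4 was not tested. edgeR and DESeq2 called 0 of the partner genes. Before adjustment 3 were higher at p under 0.05 (2.44% of all genes) and 0 lower (4.02%). Six2 had 32.5 and 18.8 CPM in WT, 49.97, 47.3 and 38.4 CPM in the Hand2 cKO libraries and 17.8 CPM in the Gli2/3 cKO library (0.82 ± 0.26, edgeR adjusted p = 0.723). Dach2 had 3.21 and 2.87 CPM in WT, 5.83, 4.88 and 6.09 CPM in the Hand2 cKO libraries and 4.21 CPM in the Gli2/3 cKO library (0.88 ± 0.22, edgeR adjusted p = 0.632). Dach1 had 24.1 and 12.96 CPM in WT, 49.3, 24.9 and 46.0 CPM in the Hand2 cKO libraries and 32.8 CPM in the Gli2/3 cKO library (1.11 ± 0.38, edgeR adjusted p = 0.723). The Pbx and Pknox genes lay between -0.10 and 0.28 in Hand2 cKO. In Gli2/3 cKO 7 of 10 partner genes were positive with a median of 0.02, and 0 passed by either tool or before adjustment. Between the mutants, 0 (Gli2/3 cKO over Hand2 cKO) were positive and 10 negative (median -0.20), with Six2 at -1.34 ± 0.33 (DESeq2 adjusted p = 0.0440, edgeR 0.701).

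**Figure D4:**
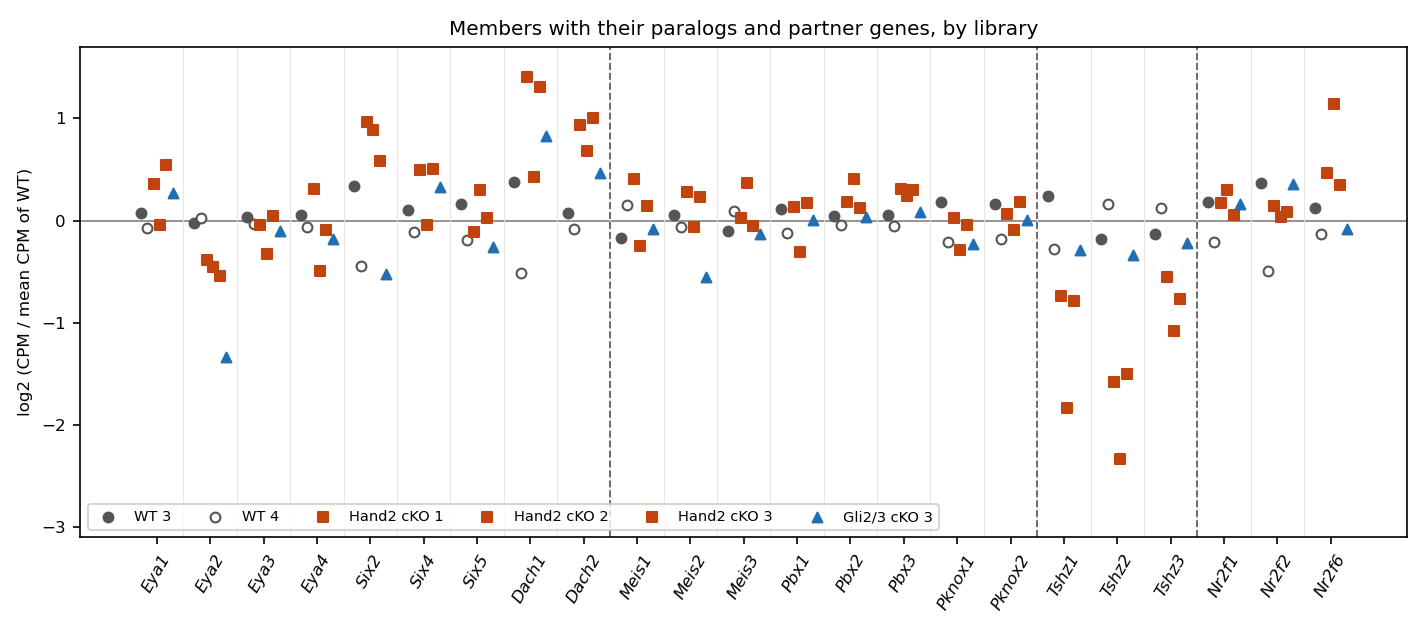
Log2 ratio of CPM to the mean of the WT libraries for the Eya genes with Six2, Six4, Six5, Dach1 and Dach2, the Meis, Pbx and Pknox genes, the teashirt genes and the Nr2f genes, separated by dashed lines, in each library; symbols are circles for WT (open for WT 4), squares for Hand2 cKO and triangles for Gli2/3 cKO. Six2, Dach1 and Dach2 lie above both WT libraries in all 3 Hand2 cKO libraries, and Tshz1, Tshz2 and Tshz3 below them.

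Other genes of the arch axis gave the setting. Of 18 further proximal and maxillary genes, 12 were positive in Hand2 cKO (median 0.18, range -0.91 to 2.12), against 49.9% of all genes. WT 4 was below WT 3 in 14 of these 18 (median -0.38), and its part in the count was not tested. Before adjustment 3 were higher (2.44% of all genes) and 1 lower (4.02%). edgeR called 0, and DESeq2 called 1 higher (0.208% of all genes). Irx5, an Iroquois homeodomain factor, had 12.3 and 10.1 CPM in WT, 18.2, 17.8 and 13.7 CPM in the Hand2 cKO libraries and 6.24 CPM in the Gli2/3 cKO library, so the mutants lay on opposite sides of WT. Its log2 fold change was 0.56 ± 0.21 in Hand2 cKO (edgeR adjusted p = 0.723), -0.85 ± 0.28 in Gli2/3 cKO (1) and -1.41 ± 0.27 between the mutants (0.498; 0.00347 by DESeq2). Pax3, a paired-box gene of dorsal neural tube, early neural crest and muscle precursors, had 5.44 and 6.94 CPM in WT, 4.26, 2.88 and 2.72 CPM in the Hand2 cKO libraries and 2.72 CPM in the Gli2/3 cKO library (-0.91 ± 0.29 and -1.18 ± 0.40 against WT, edgeR adjusted p = 0.723 and 1). In Gli2/3 cKO 7 of the 18 were positive (median -0.17), with 0 higher and 5 lower before adjustment. Alx1, an aristaless-type homeodomain factor of the frontonasal and maxillary mesenchyme, had 18.4 and 22.4 CPM in WT, 25.6, 25.3 and 19.8 CPM in the Hand2 cKO libraries and 5.78 CPM in the Gli2/3 cKO library (log2 fold change -1.82 ± 0.27, DESeq2 adjusted p = 3.83e-05, edgeR 0.428).

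Of 23 distal and mandibular genes, 9 were positive and 14 negative in Hand2 cKO, against 49.9% of all genes positive. edgeR called 1 lower (0.0114% of all genes) and DESeq2 7 (0.875%), 6 of these 7 other than Hand2 itself. Hand1, the distal paralog of Hand2, had 64.0 and 115 CPM in WT, 6.28, 4.07 and 5.22 CPM in the Hand2 cKO libraries and 35.3 CPM in the Gli2/3 cKO library. Cited1, a transcriptional coactivator, had 66.7 and 67.0 CPM in WT, 9.46, 13.8 and 8.28 CPM in the Hand2 cKO libraries and 23.8 CPM in the Gli2/3 cKO library. The log2 fold changes in Hand2 cKO were -4.11 ± 0.30 and -2.67 ± 0.24, past the threshold by DESeq2 (adjusted p = 2.26e-30 and 6.71e-18) and not by edgeR (0.0580 each). 2 genes of this list were called lower in Gli2/3 cKO by DESeq2, Cited1 (-1.49 ± 0.32) and the Nkx-type factor Nkx3-2 (-1.503 ± 0.27), and 0 by edgeR. The list joins distal with other mandibular genes, so a place in it does not make a gene distal.

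Shares within the pairs of related members varied over a narrow range. Nr2f1 took 51.6% and 59.5% of the summed CPM of Nr2f1 and Nr2f2 in WT, 55.2%, 59.2% and 54.2% in Hand2 cKO and 51.4% in Gli2/3 cKO. Meis2 took 79.4% and 73.9% of Meis1 and Meis2 in WT, 75.1%, 78.9% and 77.7% in Hand2 cKO, with its lowest share, 70.4%, in Gli2/3 cKO. All 9 genes together summed to 733 and 597 CPM in WT, 774, 676 and 747 CPM in the Hand2 cKO libraries and 686 CPM in the Gli2/3 cKO library, with overlapping groups.

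The files list 1 to 19 transcripts per member. Pou3f3 (chr1:42695768-42703176, plus strand) and Cldn11 (chr3:31149920-31164324, plus strand) have 1 each. Emx2 (chr19:59458372-59465357, plus strand) has 3, and its main transcripts, of 2916 and 1580 bases, were both higher in the mutants. The longer had 4.85 and 0.182 CPM in WT against 5.51, 5.52 and 9.30 CPM in Hand2 cKO, and the shorter 1.91 and 0.448 CPM and 3.93, 6.18 and 3.76 CPM, with 9.002 and 5.98 CPM in Gli2/3 cKO. Nr2f1 (chr13:78188973-78199757) has 5, Nr2f2 (chr7:70351944-70366735) 6, Meis1 (chr11:18879817-19018985) 9, Meis2 (chr2:115863064-116065839) 19 and Eya1 (chr1:14168954-14310235) 9, all on the minus strand. Tshz2 (chr2:169633013-170071816, plus strand) has 5. Its main transcript of 5083 bases had 16.0 and 19.6 CPM in WT against 6.99, 4.25 and 6.50 CPM in Hand2 cKO, 33.2% of WT, and the next, of 4314 bases, 7.04 and 8.63 CPM in WT against 1.78, 0.566 and 2.78 CPM in Hand2 cKO, 21.8% of WT. Both Tshz2 transcripts were therefore low in all 3 Hand2 cKO libraries.

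Some counts may include RNA of other genes. GENCODE M21 (mm10) places 18 genes within 5 kb of 8 of the members, 9 of them overlapping on the opposite strand, and none of the 18 has counts in the files. Reads of such a gene could have been assigned to the member if counting ignored strand, which is not stated. Of all 31-base words of the main Tshz2 transcript, 98.99% occur in Gm26883, a lincRNA gene on the opposite strand, and of the second transcript 72.7%, so Tshz2 values cannot be told apart from Gm26883. For the longer Emx2 transcript the share in the antisense gene Emx2os was 8.11%, and for the shorter it was 0. The most any single gene shared with the Pou3f3 transcript was 0.515%.

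Over the 6 libraries, the genes whose log2 CPM followed each member most closely were named by Pearson's r, as a description over libraries that share genotype and scaling. Among the members, Meis2 and Cldn11 (r = 0.942) and Pou3f3 and Emx2 (r = 0.941) were the most alike pairs. Closest to Cldn11 were the chemokine scavenger receptor Ackr3 (r = 0.988) and the forkhead factor Foxf2 (r = 0.983), which had 32.2 and 33.1 CPM in WT, 47.8, 50.5 and 46.9 CPM in the Hand2 cKO libraries and 3.64 CPM in the Gli2/3 cKO library. Foxf2 was picked from 10021 genes for its close match to Cldn11 in these libraries, so the shared pattern follows from the choice. Both were above WT in every Hand2 cKO library and lowest in Gli2/3 cKO, where Cldn11 had 16 counts. Closest to Tshz2 were Supt5 (r = 1.00) and the calcium channel gene Cacna1d (r = 0.997), and Cacna1d had 16.5 and 19.2 CPM in WT, 6.24, 3.51 and 6.36 CPM in the Hand2 cKO libraries and 12.8 CPM in the Gli2/3 cKO library. Supt5 varied only from 195 to 212 CPM. The closest to the rest were Brap and Mzt1 for Pou3f3, Pop1 and Snx14 for Emx2, Ogfrl1 and Cstf2t for Nr2f1, Bbs7 and Tceanc for Nr2f2, App and Zfp65 for Meis1, Fgf13 and Mras for Meis2, and Igf2bp1 and Uhrf1 for Eya1, with r from 0.935 to 0.999 over 10020 or 10021 genes compared.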

How the data were processed

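RNA-seq libraries of E10.5 MNPs were grouped by the genotype in the labels. Per the study's methods and the submitters' processing notes, the authors mapped paired-end reads to mm10, obtained transcript abundance in Strand NGS and ran DESeq2. Its version and annotation were not given in the sources used here. Sequencers differ between labels and methods. Values deposited by the authors are expected counts (estimated counts per transcript, not whole numbers) for 105129 transcripts. They were summed per gene symbol and rounded to whole numbers, since the tests need counts. Libraries held 21420197 to 53326697 estimated counts, and Poisson intervals cover counting error only. Near-identical transcripts are less certain, since the authors' program splits their reads.

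All 6 libraries entered 1 edgeR 4.0.16 quasi-likelihood fit (R 4.3.3) with genotype as the only term, trimmed mean of M values scaling and filterByExpr, which kept 17477 genes. Residual degrees of freedom were 3, the prior 3.14 and the common biological coefficient of variation 0.289. A call needed a p below 0.05 after Benjamini-Hochberg adjustment over all genes and a fold above 1.5. DESeq2 1.42.0 was an alternative, with other scalings, no filter, protein-coding genes only and the length trend removed. Further alternatives were the most abundant transcript per gene, by mean count over all 6 libraries, and each library left out. The fit was also run on simulated counts with the same spread set for every gene. That setting differs from these data, so it does not show how the fit performs on them. Samples of 1 group are separate samples, but nothing says they come from separate litters, so p-values measure the spread between these samples.

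The members and the gene lists were chosen with earlier results of these data known. Named genes were the members, the deleted genes, and per list the called genes and the 3 with the smallest p in each mutant with a mean log2 CPM of 0 or more, plus the 2 genes most like each member among those with a mean log2 CPM of 3 or more. The neural crest mesenchyme, epithelial, blood and forebrain marker lists are given by their sums. Sums of the other marker lists are not printed, so the makeup of each library is described only in part. Dach1, Emx1, Lhx2, Otx2, Pou3f2, Hes5, Fabp7, Sox1, Sox2, Sox3, Pax6, Lhx5, Six3 and Rax were named after their values were seen. Some genes stand in more than 1 list, and a few listed genes are not reported here, some of which the counts leave out. TPM used transcript lengths of GENCODE M21, and transcripts without a match there were left out of it. Coordinates are GENCODE M21 (mm10), and promoter windows RefSeq.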

Additional observations from a re-analysis of the deposited data

Results flagged for a closer look

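Cldn11 values of the mutants lay on opposite sides of WT, but the Hand2 cKO difference from WT was small and not called. Every Hand2 cKO library (2.59 to 3.42 CPM) lay above both WT libraries (2.12 and 2.26 CPM). The lone Gli2/3 cKO library (0.612 CPM) lay below them. The edgeR log2 fold change of Hand2 cKO over WT was 0.39 ± 0.27 (interval -0.26 to 1.03, adjusted p = 0.723). By exact Poisson intervals, WT 3 had 1.87 to 2.71 CPM and WT 4 had 1.56 to 2.81 CPM. The intervals of Hand2 cKO 2 (2.10 to 3.15 CPM) and Hand2 cKO 3 (2.13 to 3.14 CPM) overlapped both. Those of Hand2 cKO 1 (2.94 to 3.96 CPM) and Gli2/3 cKO (0.350 to 0.994 CPM) overlapped neither. The difference of Gli2/3 cKO from Hand2 cKO was -2.22 ± 0.38 on the log2 scale, which missed the threshold by edgeR (adjusted p = 0.410) and passed by DESeq2 (adjusted p = 0.00835). Over 14 alternative settings it ran from -2.29 to -2.08, with adjusted p from 0.00835 to 0.961. The Gli2/3 cKO value rests on 16 counts in 1 library.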

How the results depend on the processing

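No paired analysis was possible because the libraries compared share only replicate number 3. The number of the 9 genes called by edgeR was 0 in every comparison and direction. It was 1 lower in Hand2 cKO against WT by DESeq2 and with the transcript-length trend removed (Tshz2 each time), 1 higher in Gli2/3 cKO against WT by DESeq2 (Pou3f3) and 1 lower in Gli2/3 cKO against Hand2 cKO by DESeq2 (Cldn11). Leaving out 1 library gave 0 to 1 lower in Hand2 cKO, the 1 being Tshz2 without Hand2 cKO 2, and 0 elsewhere. Over all genes, edgeR called 0 higher and 2 lower in Hand2 cKO, against 35 and 147 by DESeq2 and up to 7 and 35 without 1 library. In Gli2/3 cKO against WT it called 0 and 2, against 20 and 111 by DESeq2 and up to 4 and 11 without 1 library, and between the mutants 3 and 3, against 42 and 102 and up to 11 and 13.

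Of 27 log2 fold changes of the 9 genes, 8, in 4 genes, changed sign under at least 1 of 14 alternatives, in 12 cases, and the cause was not tested. Their values were -0.078 to 0.36. With the most abundant transcript per gene, Nr2f2 was -0.040 and Meis1 -0.021 in Hand2 cKO, and with upper-quartile scaling Nr2f1 was 0.020 between the mutants. Leaving out 1 library gave ranges that crossed 0 for Nr2f1 (-0.0061 to 0.39 in Hand2 cKO, -0.019 to 0.37 in Gli2/3 cKO and -0.070 to 0.053 between the mutants), Nr2f2 (-0.27 to 0.58 in Hand2 cKO and -0.0085 to 0.85 in Gli2/3 cKO), Meis1 (-0.041 to 0.30 in Hand2 cKO and -0.23 to 0.096 in Gli2/3 cKO) and Eya1 (-0.18 to 0.10 between the mutants). The sign turned without WT 4 for Nr2f1 and Nr2f2 in both mutants and Meis1 in Gli2/3 cKO, and without WT 3 or Hand2 cKO 1 for Meis1 in Hand2 cKO. Against Hand2 cKO it turned without Hand2 cKO 2 for Nr2f1 and without Hand2 cKO 3 for Eya1. The signs of Pou3f3, Emx2, Tshz2, Cldn11 and Meis2 held in all 14. With 2 WT libraries and 1 Gli2/3 cKO library, a gene that was not called may still differ.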
